A study of Homo sapiens with 14 samples.

Results

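The comparison described here is the effect of a SOX17 siRNA pool on cells that also received a PAX8 siRNA pool. It sets the libraries named siDual (PAX8 and SOX17 pools together) against those named siPAX8 (PAX8 pool only), 2 libraries a group, over every gene that passed a filter on low counts: 21032 genes of the 58219 in the deposited table. The cells were OVCAR4, an established human line of high-grade serous ovarian cancer. For every library, siRNA controls included, 300000 cells were reverse transfected with 120 nM siRNA, refed at 24 hours and harvested at 72 hours, and total RNA was sequenced by a BGI-seq protocol. The other libraries used here were siSOX17 (SOX17 pool only, 2 libraries) and the non-targeting pools siNT1 and siNT2 (2 libraries each, pooled as controls), while siMECOM and siWT1 entered only the estimate of the spread. The sources used here do not say how the siRNA dose was divided between the pools in siDual, nor whether replicates were separate transfections, so p-values measure the spread between these libraries, which may be technical.

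PAX8 and SOX17 are transcription factors of the Müllerian tract. PAX8 is a paired-box factor kept by most serous ovarian cancers and used to recognise them in pathology. SOX17 carries an HMG box that binds the minor groove at ACAAT-like sequences, and it is known for specifying endoderm, for arterial endothelium and for restraining Wnt signalling through beta-catenin. MECOM is another factor of serous ovarian cancer, often gained in copy number.

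Both targets were below the controls in siDual. SOX17 stood at 77.9 and 82.9 CPM (counts scaled to the library total with TMM factors) in the siPAX8 libraries and at 15.9 and 17.7 in the siDual libraries, against 15.7 and 13.1 in siSOX17 and 104 to 119 in the controls. Its log2 fold change from siPAX8 to siDual was -2.26 ± 0.11 (SE; adjusted p = 1.07e-10, edgeR). PAX8 stood at 32.8 and 38.3 CPM in siPAX8, at 52.8 and 50.6 in siDual and at 192 to 225 in the controls. In siSOX17 it stood at 266 and 273 CPM, above the controls by 0.4 on the log2 scale (adjusted p = 6.94e-05, edgeR). PAX8 was therefore higher with the SOX17 pool both without and with the PAX8 pool, and the reason was not tested. PAX8 was thus less depleted in siDual than in siPAX8, by 0.54 ± 0.08 on the log2 scale (adjusted p = 1.24e-04). SOX17 loss and this weaker PAX8 depletion cannot be told apart in any value below. MECOM fell from 97.8 and 97.6 CPM to 47.5 and 51.1, a log2 change of -0.99 ± 0.15 (adjusted p = 9.19e-05). WT1 was near the floor, at 0.212 and 0.267 CPM in siPAX8 and 0.133 and 0.18 in siDual.

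The 4 libraries held 41107918 to 49803860 counts, and mitochondrially encoded genes took 9.27% to 10.34% of them in siPAX8 and 10.27% to 10.98% in siDual. Serous markers were present in the controls (MUC16 at 189 CPM, WFDC2 at 124 and SLC34A2 at 735 on average), while WT1 and MSLN averaged below 1 CPM. Of 12 immune markers, the pan-leukocyte gene PTPRC had 9 counts over the 4 libraries and CD3D and MS4A1 had 0. CSF1R, at a mean of 20.5 CPM in siPAX8 and 33.6 in siDual, and CD68, at 35.9 and 42.5, were the immune markers above 1 CPM.

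Of the 21032 genes, 2317 (11.0%) rose and 1798 (8.55%) fell from siPAX8 to siDual at an adjusted p under 0.05 (edgeR quasi-likelihood test), 4115 (19.6%) in all. At least a 2-fold change was reached by 399 of those that rose and 430 of those that fell, and at least a 4-fold change by 91 and 110. Most calls were of modest size, with a median absolute log2 change of 0.53 among called genes. Protein-coding genes made up 82.4% of those called higher and 85.5% of those called lower, against 69.9% of all tested. The median log2 CPM was 4.55 and 4.02, against 3.04 for all tested. The shares of all genes set beside the lists below were not matched for gene type or level. Both siDual libraries lay above both siPAX8 libraries for 31.6% of all genes and below both for 25.9%, and the groups overlapped for the other 42.5%. The counts rested in part on the number of libraries: 1445 genes were called higher without siPAX8 replicate 2, 1510 without siDual replicate 1 and 1519 without siDual replicate 2, and 1126 were called lower without siDual replicate 1 and 1182 without siDual replicate 2.

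Among protein-coding genes of mean log2 CPM of 1 or more, the largest increase was in SEMA5B (chromosome 3, 122909193 to 123028605, minus strand, GENCODE on hg38), an axon-guidance semaphorin, which stood at 1.36 and 1.07 CPM in siPAX8 and at 13.3 and 7.52 in siDual, an 8.48-fold increase (log2 3.08 ± 0.29, adjusted p = 3.52e-07). GJA5, the arterial and atrial connexin 40, went from 1.85 and 1.58 CPM to 12.4 and 10.4 (log2 2.73 ± 0.22, adjusted p = 7.28e-08). In both genes the siDual libraries lay well above the siPAX8 libraries, and the controls were lower still for GJA5, at 0.044 to 0.189 CPM. NPPB (chromosome 1, 11857464 to 11858931, minus strand), which encodes the natriuretic peptide BNP, went from 64.3 and 93.9 CPM to 415 and 410, with 417 and 400 in siSOX17 (log2 2.38 ± 0.18, adjusted p = 1.76e-08). IL11, a cytokine that signals through gp130, went from 21.5 and 22.4 CPM to 89.2 and 92.9 (log2 2.05 ± 0.11, adjusted p = 4.15e-10).

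Of the same 15 genes, 4 are known from striated muscle. ANKRD2, a titin-binding ankyrin-repeat protein of muscle, rose by 2.61 ± 0.20 on the log2 scale, from 1.66 and 1.23 CPM to 10.2 and 7.47. XIRP1, an actin-binding repeat protein of intercalated discs, rose by 2.30 ± 0.24, CASQ1, the calcium store protein calsequestrin, by 2.21 ± 0.21, and TRIM55, a sarcomere-associated ubiquitin ligase, by 2.15 ± 0.20. All 4 were low in absolute terms, with no siDual library above 16.7 CPM. NLRP3, the inflammasome sensor, rose from 0.807 and 1.05 CPM to 4.95 and 5.2 (log2 2.45 ± 0.23). The ubiquitin ligase TRIM6, the teneurin TENM2, the kinase WNK4, the zona pellucida gene ZP1, the lipase inhibitor ANGPTL4 and the IGF carrier IGFBP3 completed the 15 largest, with log2 increases of 2.13, 1.88, 1.87, 1.86, 1.85 and 1.84. IGFBP3 was the most abundant of all 15, at 269 and 297 CPM in siPAX8 and 1170 and 866 in siDual.

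The largest decreases were steeper than the largest increases. IL33 (chromosome 9, 6215786 to 6257983, plus strand), a nuclear alarmin of the interleukin-1 family, stood at 18.8 and 23.3 CPM in siPAX8 and at 0.426 and 0.765 in siDual, 34.5-fold lower (log2 -5.11 ± 0.22, adjusted p = 1.02e-11). The siPAX8 libraries were far above the controls, at 2.1 to 2.57 CPM, and the siDual libraries below them. CXCL5 (chromosome 4, 73995642 to 73998779, minus strand), a neutrophil-attracting chemokine, went from 30.8 and 79.4 CPM to 1.86 and 2.93 (log2 -4.50 ± 0.42, adjusted p = 3.47e-07). Its siPAX8 libraries differed from each other, and the log2 change was -3.67 without siPAX8 replicate 2 and -5.03 without siPAX8 replicate 1.

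RHOC (chromosome 1, 112701106 to 112707434, minus strand), a small GTPase of cell motility, fell from 333 and 276 CPM to 17.7 and 13.6, a log2 change of -4.28 ± 0.16 (adjusted p = 1.39e-12). It was at 9.35 and 5.62 CPM in siSOX17 and at 161 to 192 in the controls, so both groups with the SOX17 pool lay below every other library of these groups. AL603832.3, a gene model that overlaps RHOC on the same strand, gave -4.16 ± 0.14 and may share its reads. IMPDH1, an enzyme of guanine nucleotide synthesis, was likewise lowest in the groups with the SOX17 pool: 117 and 110 CPM in siPAX8, 15.6 and 14.5 in siDual, 9.28 and 10.6 in siSOX17 and 130 to 162 in the controls (log2 -2.91 ± 0.11, adjusted p = 1.39e-12). The siRNA sequences were not used here, so whether the SOX17 pool matches RHOC, IMPDH1 or other transcripts was not tested.

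The scaffold protein IQGAP2 fell from 33.7 and 40.5 CPM to 2.39 and 3.33 (log2 -3.68 ± 0.15). HEPHL1, a copper ferroxidase, fell by 3.78 ± 0.35 on the log2 scale, the integrin chain ITGA9 by 3.01 ± 0.26, the intracellular FGF homologue FGF13 by 2.89 ± 0.20 and the germ-line cyclin CCNA1 by 2.80 ± 0.18. NLRP7 fell by 2.78, TCIM by 2.72 and the hedgehog co-receptor GAS1 by 2.64. Another SOX factor, SOX5, fell from 7.62 and 7.55 CPM to 1.36 and 1.1 (log2 -2.63 ± 0.18, adjusted p = 7.8e-09). FLI1, an ETS factor of endothelial and blood cells, fell from 19.1 and 18.7 CPM to 3.62 and 3.26 (log2 -2.46 ± 0.16, adjusted p = 2.59e-09). All 30 of these genes kept their call in the 11 other settings run for them, of which 4 left out a siPAX8 or siDual library.

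**Figure D1:**
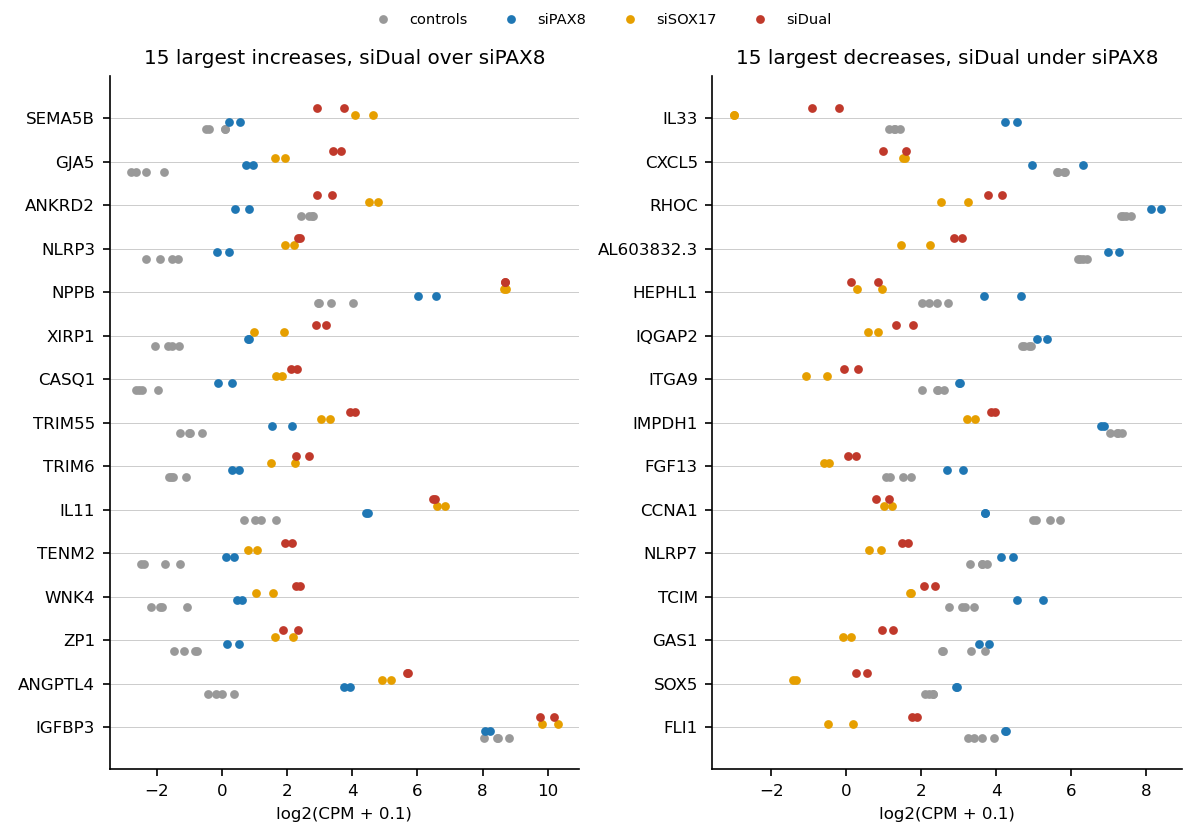
Each point is a library, placed by its log2(CPM + 0.1), for the 15 protein-coding genes with the largest increase (left) and the 15 with the largest decrease (right) from siPAX8 to siDual. Controls are siNT1 and siNT2; the siDual points lie beyond both siPAX8 points for every gene shown, a condition of their selection.

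Among long noncoding RNAs, AL590004.3 (chromosome 6, 3904920 to 3911979, minus strand) went from 24.8 and 23 CPM to 107 and 86.9 (log2 2.02 ± 0.11, adjusted p = 3.03e-10), and AC245041.1 rose by 2.13 ± 0.20. AC241644.3 rose by 2.59 ± 0.26 and lies within GJA5 on the opposite strand. SENCR, a vascular RNA antisense to FLI1, fell by 2.09 ± 0.18, and AC073072.1, antisense to IL6, fell by 1.84 ± 0.20. The strand setting of the counting is not given in the sources used here, so reads of these pairs, and of ANGPTL4 and RAB11B-AS1, TRIM6 and TRIM6-TRIM34, or NLRP7 and NLRP2, which also overlap, cannot be told apart. AC011731.1 fell by 1.5 ± 0.21.

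Chemokines fell together. Of 16 measured CXC and CC chemokines, with CX3CL1 counted among them, 12 fell, 1 rose and 3 were not called, against 8.55% of all genes that fell, and the list's median log2 change was -1.32 against 0.021 over all genes tested. CX3CL1, a membrane-tethered chemokine, stood at 43.8 and 45.9 CPM in siPAX8 and at 8.09 and 9.29 in siDual (log2 -2.36 ± 0.10, adjusted p = 9.09e-12). CXCL5 has been given above. The member that rose was CCL28, from 10.4 and 13.1 CPM to 18.8 and 18.2 (log2 0.65 ± 0.14, adjusted p = 0.00239), a call lost without siPAX8 replicate 1. Most chemokines were higher in siPAX8 replicate 2 than in replicate 1. CXCL8, which was picked out after its values were seen, stood at 150 and 291 CPM in siPAX8 and at 45 and 76.6 in siDual. Both siDual libraries lay below both siPAX8 libraries for every chemokine called lower, as they did for all 1798 genes called lower. Without siPAX8 replicate 2 the list's median log2 change was -0.96.

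The sequences before the starts of these genes are shown because several share an NF-kB match, the site of the Rel-family factors that drive inflammatory genes. RefSeq promoters on GRCh38.p14 were at hand for 12034 of 20993 tested symbols, 17325 sequences in all, and the 250 bases before each start were searched on both strands. The NF-kB consensus matched 6 of the 9 promoters of chemokines called lower (66.7%), against 6.05% of all promoters. It matched 8.45% of the promoters of all genes called lower. No share was taken for chemokines that were not called, so the matches describe these genes and not their fall. CXCL5 and CXCL6, and CXCL2 and CXCL3, are neighbouring paralogs on chromosome 4 whose promoters resemble each other, so these are not independent matches. Capitals mark the match, overlapping matches are joined, and each line reads 5′ to 3′ on the strand of its gene. The CXCL lines are kept short because longer GENCODE transcripts cover them. They lie at chr4:73998749-73998777 on the minus strand (CXCL5), chr4:73836579-73836607 on the plus strand (CXCL6), chr4:74099254-74099282 on the minus strand (CXCL2), chr4:74038749-74038777 on the minus strand (CXCL3), chr2:227813738-227813797 on the plus strand (CCL20) and chr16:57358573-57358632 on the plus strand (CCL22).
CXCL5: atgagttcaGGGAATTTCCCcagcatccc
CXCL6: ctgagttcaGGGAATTTCCCcagcatccc
CXCL2: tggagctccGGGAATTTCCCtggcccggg
CXCL3: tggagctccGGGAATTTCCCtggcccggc
CCL20: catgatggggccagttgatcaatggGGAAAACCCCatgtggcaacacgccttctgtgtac
CCL22: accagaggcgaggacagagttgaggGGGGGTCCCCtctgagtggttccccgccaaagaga

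The SOX motif ACAATGG, which contains the shorter ACAAT, was found in 2.8% of promoters of genes called lower, 1.11% of those called higher and 1.71% of all. ACAAT itself was found in 18.3%, 15.7% and 16.5%. A match is a description of the letters and not of binding. Of genes with a promoter, ACAATGG was found in 10 of 242 called lower by at least 2-fold and 2 of 219 called higher by as much. Most genes that fell steeply thus had no match. Among the 30 largest changes, 23 genes had a promoter. The matches of CXCL5 (chr4:73998793-73998849, minus strand) and SOX5 (chr12:24562641-24562697, minus strand) are shown since both genes fell steeply, with capitals on the reverse complement of the motif.
CXCL5: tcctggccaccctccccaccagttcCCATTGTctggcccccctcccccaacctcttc
SOX5: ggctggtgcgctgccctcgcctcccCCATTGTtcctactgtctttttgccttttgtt

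The interleukin-1 family and NF-kB list was mixed: 8 of 22 measured members fell and 3 rose, with a median log2 change of -0.17. Against 8.55% and 11.0% of all genes, the count that rose is near the background. Besides IL33, the cytokine IL1B fell from 8.37 and 11.1 CPM to 1.7 and 2.88 (log2 -2.07 ± 0.21, adjusted p = 8.52e-07). Receptors moved both ways. IL1R2, a decoy receptor that binds interleukin-1 without signalling, rose from 11.5 and 9.63 CPM to 32.7 and 31.1 (log2 1.6 ± 0.09, adjusted p = 8.04e-10), and stood at 55.4 to 63.7 in the controls. Without siPAX8 replicate 1 only 1 member was called higher. Of the gp130 list, IL6 fell from 57.1 and 93.8 CPM to 14.9 and 20.2 (log2 -2.10 ± 0.20, adjusted p = 4.84e-07), so IL11 and IL6, which both signal through gp130, went in opposite directions, and 13 of the 16 measured members were not called.

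**Figure D2:**
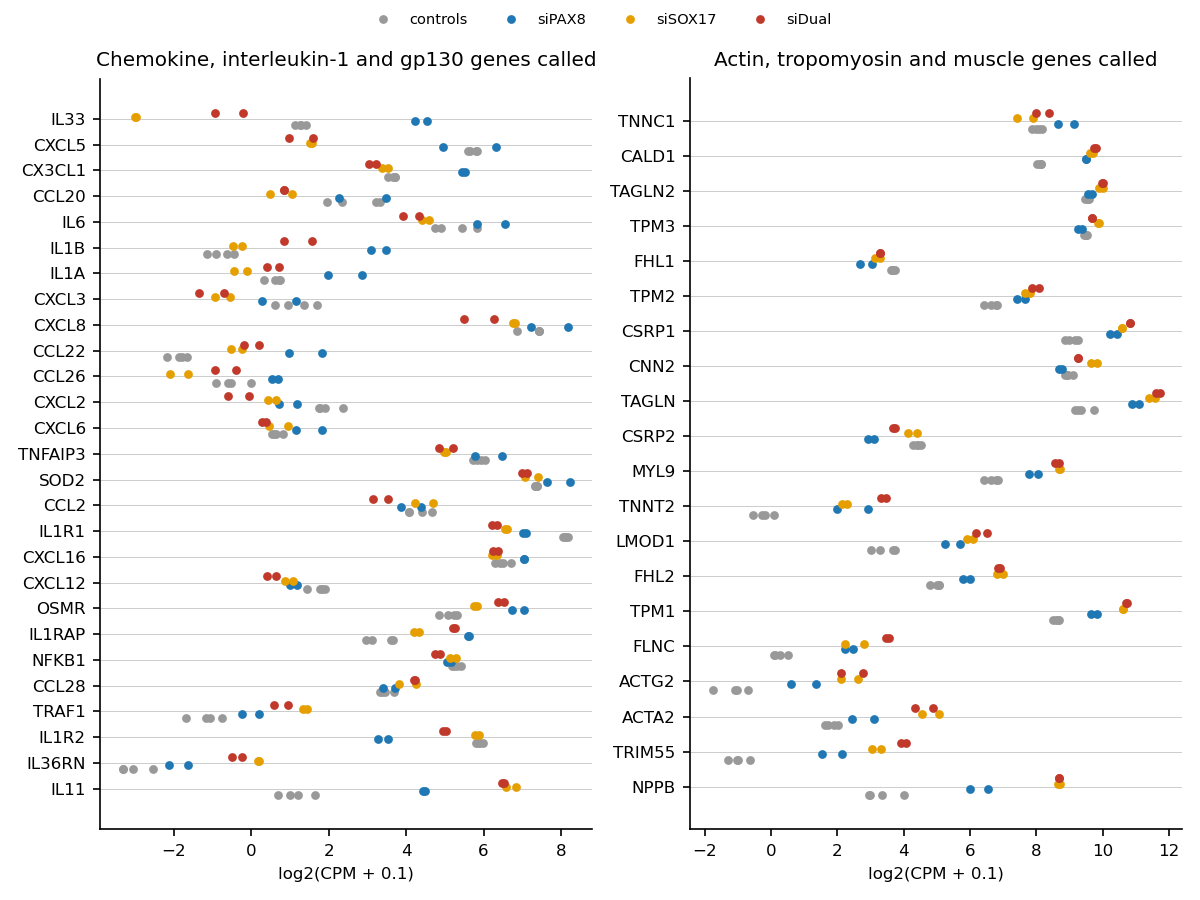
Each point is a library, placed by its log2(CPM + 0.1), for the called members of the chemokine, interleukin-1 and gp130 lists (left) and of the actin, tropomyosin and muscle list (right), ordered by log2 fold change from siPAX8 to siDual. Genes near the top fell and genes near the bottom rose; IL33, CXCL5 and CX3CL1 head the left panel, and NPPB ends the right.

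Contractile genes rose as a group. Of 32 measured actin, tropomyosin and muscle genes, 19 rose and 1 fell, against 11.0% of all genes that rose, with a median log2 change of 0.46, though 12 were called higher without siPAX8 replicate 2. After NPPB and TRIM55, the largest increase of the list was in smooth-muscle actin ACTA2, from 8.45 and 5.39 CPM to 29.2 and 20 (log2 1.82 ± 0.19, adjusted p = 1.59e-06). TPM1, a tropomyosin that coats actin filaments and a member of high abundance picked out after its values were seen, went from 909 and 810 CPM to 1710 and 1680 (log2 0.98 ± 0.09). The cytoplasmic actins ACTB and ACTG1 were not called, at 0.18 and 0.12. TNNC1, slow and cardiac troponin C, fell from 557 and 400 CPM to 336 and 253 (log2 -0.70 ± 0.15, adjusted p = 0.00266), a call lost without siPAX8 replicate 1 and without siDual replicate 2.

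A CArG box, the site of serum response factor on many contractile genes, matched 6 of 40 promoters of the contractile genes called higher (15%). It matched 1.06% of all promoters and 1.83% of those of all genes called higher. No share was taken for contractile genes that were not called, so the matches describe these genes and not their rise. The 40 promoters belonged to 15 genes, and the matches to 4 of them: ACTG2, CNN2, FHL1 and FHL2. The matches of ACTG2 (chr2:73892873-73892932, plus strand), CNN2 (chr19:1026494-1026553, plus strand) and FHL2 (chr2:105438580-105438639, minus strand) are shown with the box in capitals.
ACTG2: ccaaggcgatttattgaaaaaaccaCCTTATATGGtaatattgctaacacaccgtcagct
CNN2: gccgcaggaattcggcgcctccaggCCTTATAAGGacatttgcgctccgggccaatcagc
FHL2: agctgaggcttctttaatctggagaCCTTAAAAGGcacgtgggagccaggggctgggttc

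ACTG2, the enteric smooth-muscle actin, rose by 1.5 on the log2 scale (adjusted p = 0.000341), the LIM-domain cofactor FHL2 by 0.97 (adjusted p = 6.19e-07) and the calponin CNN2 by 0.54 (adjusted p = 0.000266). All 3 are named for their promoters, after their values were seen. SRF itself was not called (log2 0.06, adjusted p = 0.745).

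Glycolysis and hypoxia genes rose. Of 32 measured members 24 rose and 2 fell, against 11.0% and 8.55% of all genes, with a median log2 change of 0.42, and 16 were called higher without siDual replicate 1. CA9, a carbonic anhydrase and a classic hypoxia marker, went from 3.02 and 2.99 CPM to 12.3 and 8.98 (log2 1.82 ± 0.22, adjusted p = 9.1e-06). ADM, which encodes the vasodilator adrenomedullin, went from 21.1 and 27.3 CPM to 73.4 and 69.4 (log2 1.56 ± 0.11, adjusted p = 8.98e-09). Enzymes of high abundance moved less: LDHA, lactate dehydrogenase A, picked out after its values were seen, went from 1510 and 1330 CPM to 2250 and 2110 (log2 0.62 ± 0.09). The members that fell were the lactate exporter SLC16A3, from 102 and 94.9 CPM to 66.1 and 57.7 (log2 -0.67 ± 0.08, adjusted p = 1.04e-05), and the hexokinase HK1 (log2 -0.40 ± 0.08, adjusted p = 0.00229). Nuclear oxidative phosphorylation genes were nearly still, with 1 of 36 called, the succinate dehydrogenase subunit SDHC (log2 0.40).

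Mitotic genes were mostly higher in siDual than in siPAX8, while their median stayed below the controls in both. Not every member did: ANLN stood at 385 and 365 CPM in siDual and at 378 to 407 in the controls. Of 32 measured G2/M and mitosis genes 28 rose and 4 were not called, against 11.0% of all genes that rose, with a median log2 change of 0.47. Fewer members were called higher with any siPAX8 or siDual library left out, and the median was then 0.42 to 0.51. CCNA2, the cyclin of S phase and mitotic entry, stood at 16.7 and 14.9 CPM in siPAX8, at 35 and 30.3 in siDual and at 92.7 to 115 in the controls (log2 1.04 ± 0.10, adjusted p = 3.41e-07, siDual against siPAX8). KIF20A, a kinesin of cytokinesis, went from 51.5 and 52.5 CPM to 98.5 and 98.6 (log2 0.92 ± 0.08, adjusted p = 8.39e-08), with 171 to 199 in the controls. The list's median against the controls was -1.65 in siPAX8 and -1.16 in siDual.

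G1/S and DNA replication genes moved less. Of 34 measured members 6 rose and 1 fell, a share higher that is not far from the 11.0% of all genes, with a median of 0.17. RRM2, the ribonucleotide reductase subunit, went from 26.5 and 30.6 CPM to 45.3 and 52.6 (log2 0.78 ± 0.09, adjusted p = 5.2e-06), and the replication clamp PCNA from 22.7 and 22.3 to 34.3 and 35.6 (log2 0.64 ± 0.08, adjusted p = 5.86e-06). CCNE1, cyclin E1, went from 28.6 and 32.4 CPM to 22 and 25.5 (log2 -0.36 ± 0.09, adjusted p = 0.00616), and lost its call without siPAX8 replicate 2 and without siDual replicate 1. CDK inhibitors and p53 targets went both ways, with a median of -0.04. Of 23 measured members 5 rose and 6 fell, against 11.0% and 8.55% of all genes. The CDK inhibitor CDKN1A rose from 24.5 and 28.1 CPM to 44.2 and 45.2 (log2 0.77 ± 0.11, adjusted p = 5.7e-05). Another, CDKN1C, fell from 2.76 and 2.54 CPM to 0.905 and 1.01 (log2 -1.46 ± 0.25, adjusted p = 0.000347).

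**Figure D3:**
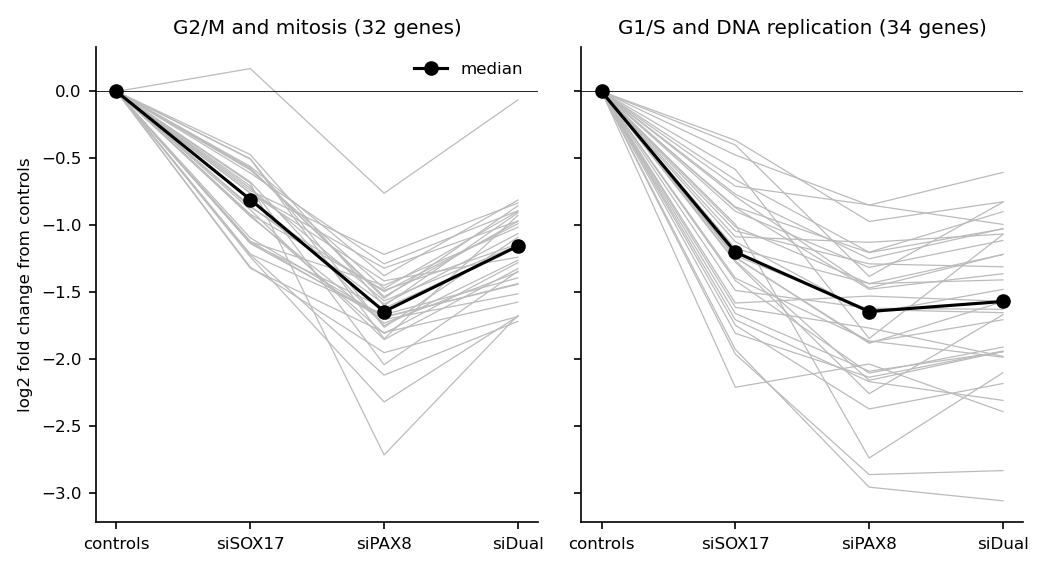
Fitted log2 fold changes from the controls in siSOX17, siPAX8 and siDual for each G2/M gene (left, 32 genes) and each G1/S gene (right, 34 genes), with grey lines for genes and the black line for their median. The G2/M median rises from -1.65 in siPAX8 to -1.16 in siDual, and the G1/S median from -1.65 to -1.57.

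Wnt genes fell more often than they rose. Of 33 measured ligands, receptors, feedback genes and targets, 14 fell and 4 rose, with a median of -0.31. Of all genes 8.55% fell and 11.0% rose, so the count that rose is near the background. The calls of this list were sensitive to single libraries, with 9 lower without siPAX8 replicate 2 or without siDual replicate 2, and 0 or 1 higher without any of the 4 libraries. NOTUM, a secreted Wnt deacylase and feedback inhibitor, went from 5.39 and 5.77 CPM to 1.33 and 0.878 (log2 -2.35 ± 0.24, adjusted p = 9.3e-07). AXIN2, the common readout of beta-catenin, was picked out after its values were seen and went from 7.98 and 8.78 CPM to 3.43 and 3.53 (log2 -1.27 ± 0.13, adjusted p = 8.33e-07). Of 13 measured SOX factors 4 fell, SOX5 most, against 8.55% of all genes. Of 12 GATA, HNF and endoderm factors 6 fell and 1 rose, against the same 8.55% and 11.0% of all genes. HHEX, an endoderm homeobox factor, went from 3.8 and 3.5 CPM to 1.86 and 1.55 (log2 -1.10 ± 0.18, adjusted p = 0.000169), and the zinc-finger factor GATA6 fell by 1.09 ± 0.14.

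Endothelial genes measurable in these tumour cells went down. Of 8 measured endothelial markers 5 fell, or 3 without siDual replicate 1, against 8.55% of all genes, and their summed level went from 24.49 and 23.46 CPM to 8.755 and 9.698. CDH5, VE-cadherin, made up much of it, at 12.4 and 12.6 CPM in siPAX8 and 2.71 and 3.17 in siDual (log2 -2.08 ± 0.14, adjusted p = 8.11e-09). The defining markers TEK, FLT1, EMCN and ROBO4 were under the count filter, with 3 to 24 counts over the 4 libraries. Against the controls, the median log2 change of the 8 measured markers was 0.57 in siPAX8 and -0.72 in siDual. These are bulk libraries of the OVCAR4 line, so expression in fewer of its cells and less RNA per cell cannot be told apart.

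Epithelial and adhesion lists differed from each other, where 11.0% of all genes rose and 8.55% fell. Of 6 measured simple keratins 5 rose and KRT23 fell. KRT18 went from 2190 and 1480 CPM to 5260 and 4380 (log2 1.39 ± 0.16, adjusted p = 3.46e-06) and its partner KRT8 from 4320 and 3190 to 9460 and 8050 (log2 1.22 ± 0.14, adjusted p = 2.51e-06). KRT23 went from 59.2 and 44.9 CPM to 21.5 and 13.9 (log2 -1.56 ± 0.15, adjusted p = 5.31e-07). Of 13 squamous and stress keratins 3 fell and 2 rose, with a median of 0.22. Those that fell were KRT6 paralogs that may share reads (KRT6A by 2.12 on the log2 scale). KRT6C was near the floor, at 0.255 and 0.267 CPM in siPAX8 and 0.0266 and 0 in siDual, and lost its call with DESeq2 and without siDual replicate 2. KRT17, which rose, lost its call without siPAX8 replicate 2 and without siDual replicate 1. Of 32 epithelial adhesion and junction genes 8 rose and 4 fell, with a median of 0.03, and 2 were called lower without siPAX8 replicate 1 and 1 without siDual replicate 1. Of 18 integrin subunits 8 rose and 1, ITGA9, fell; 4 were called higher without siPAX8 replicate 1 and 5 without siDual replicate 2. ITGB3, the vitronectin-receptor chain, went from 24.1 and 26 CPM to 60.2 and 50.5 (log2 1.14 ± 0.10, adjusted p = 1.41e-07). Of 28 measured serous ovarian and Müllerian markers, the targets PAX8 and SOX17 included, 7 fell and 3 rose, with a median of -0.17. The epithelial phosphate transporter SLC34A2, a target of ovarian cancer antibodies, went from 636 and 651 CPM to 149 and 147 (log2 -2.12 ± 0.09, adjusted p = 9.09e-12). It held 669 and 586 CPM in siSOX17 and 688 to 813 in the controls. KLK5 of the same list rose from 59.6 and 33.2 CPM to 160 and 137 (log2 1.68 ± 0.19, adjusted p = 3.4e-06).

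Of 25 measured amino acid and unfolded-protein stress genes, 10 were called lower and 1 higher, against 8.55% and 11.0% of all genes, with a median of -0.14. SLC7A11, the cystine transporter, went from 14.4 and 18.3 CPM to 4.58 and 4.19 (log2 -1.90 ± 0.19, adjusted p = 5.4e-07), and the sestrin SESN2 from 122 and 105 to 65.5 and 60.2 (log2 -0.85 ± 0.09, adjusted p = 1.04e-06). The ferritin chains parted: heavy chain FTH1 went from 19300 and 22600 CPM to 8290 and 10200 (log2 -1.18 ± 0.19, adjusted p = 0.000204), and light chain FTL from 3300 and 3050 to 4830 and 4610 (log2 0.57 ± 0.10, adjusted p = 0.000472). The stress cytokine GDF15 went from 227 and 189 CPM to 80.9 and 60.1 (log2 -1.56 ± 0.16, adjusted p = 9.54e-07). GDF15 was counted above among the CDK inhibitors and p53 targets and not among the amino acid and unfolded-protein genes, while SESN2 was counted in both lists.

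**Figure D4:**
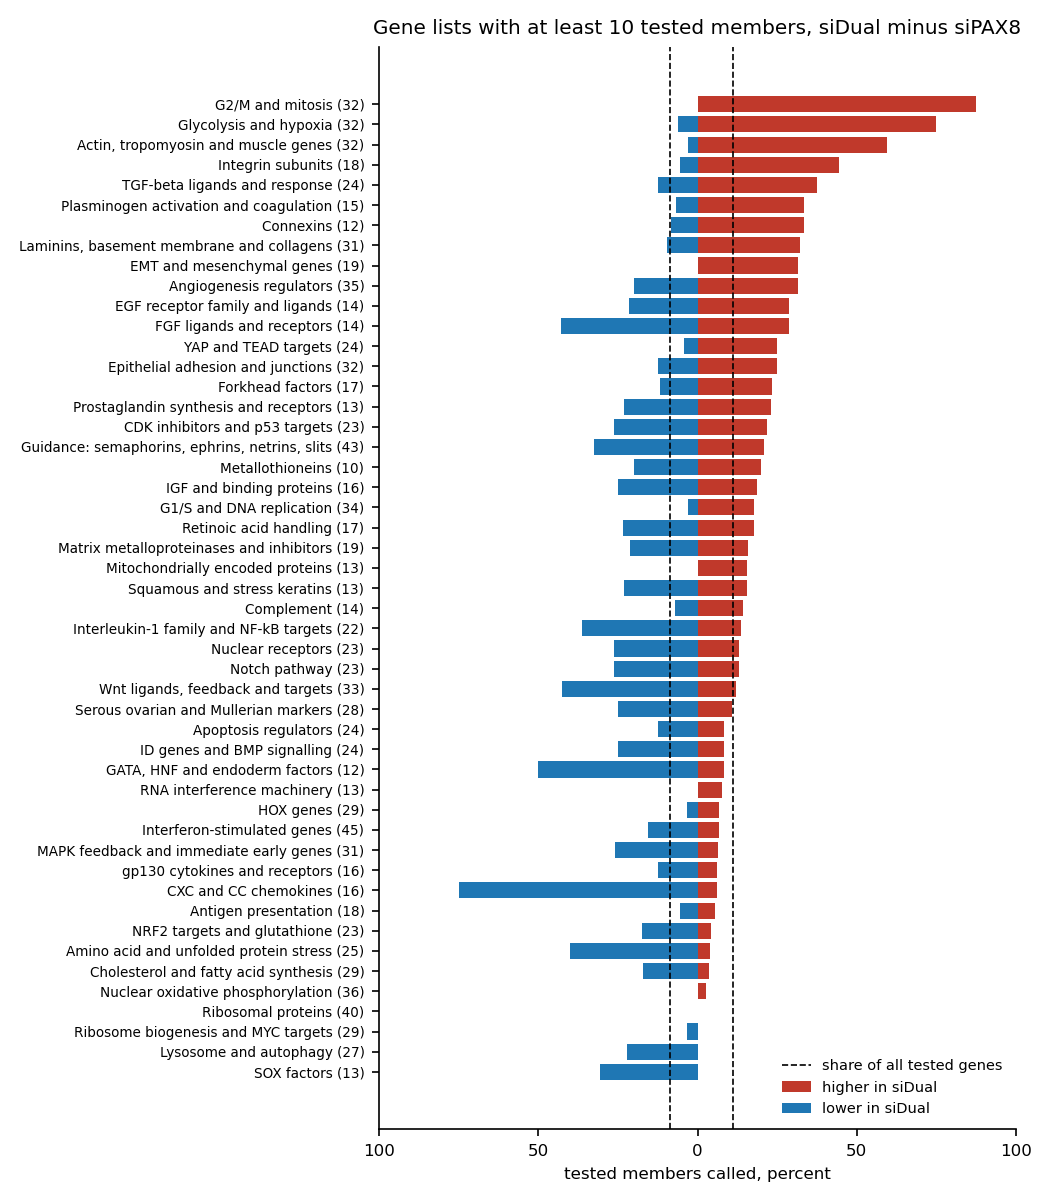
Share of tested members of each list called higher (right, red) or lower (left, blue) in siDual against siPAX8, with the number tested in parentheses and dashed lines at the share of all tested genes, 11.0% higher and 8.55% lower. Lists with at least 10 tested members are shown; G2/M genes reach the largest share higher and chemokines the largest share lower.

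The same SOX17 pool was also given without the PAX8 pool, and siSOX17 minus controls shares no library with siDual minus siPAX8. Against the controls, 5716 genes (27.2%) rose and 5353 (25.5%) fell in siSOX17. Of the 4115 genes called in siDual minus siPAX8, 2904 (70.6%) were called the same way there, which is 26.2% of the genes called in siSOX17 minus controls. Among those 2904, 1627 were higher and 1277 lower. The change was smaller in size with the PAX8 pool for 2127 of them (73.2%), with a median size of 0.56 against 0.83 on the log2 scale. Across all tested genes the 2 log2 changes correlated with Pearson's r = 0.53 and Spearman's rho = 0.46, a description over genes, which are not independent replicates.

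**Figure D5:**
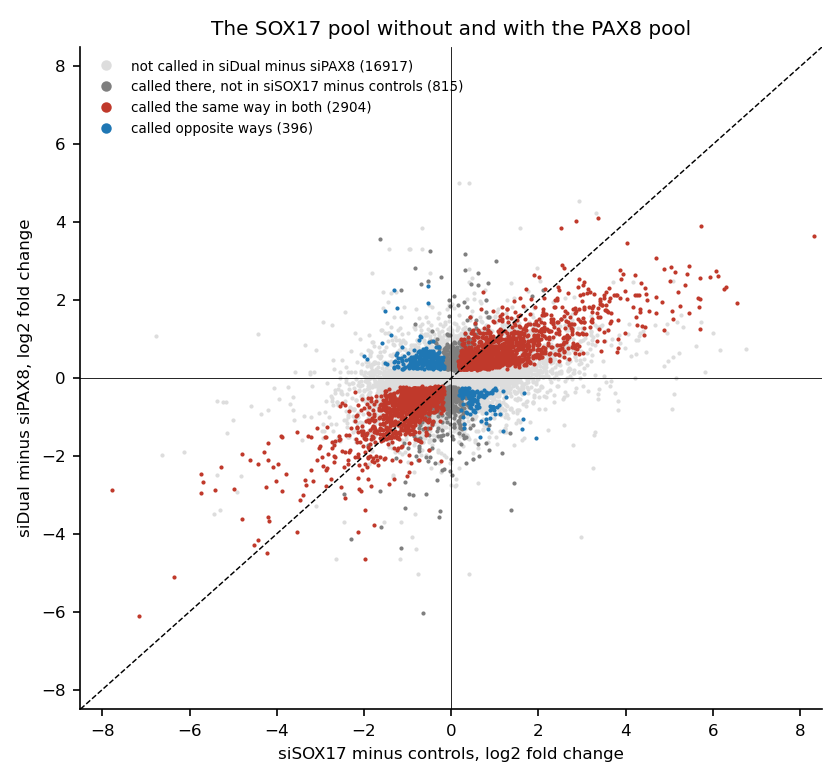
Log2 fold change of each of the 21032 tested genes in siSOX17 minus controls (x axis) and in siDual minus siPAX8 (y axis), with colours for the calls and a dashed line of equality. Of the genes called the same way (2904, red), 73.2% lie between the x axis and the line, and 396 genes (blue) were called opposite ways.

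The test of the difference itself, siDual minus siPAX8 minus the change from controls to siSOX17, called 2530 genes (12.0%) higher and 2740 (13.0%) lower with the PAX8 pool present. PAX8 itself was not called in this difference (log2 0.14, adjusted p = 0.393), since it was higher with the SOX17 pool in both settings. How the weaker PAX8 depletion in siDual enters the difference of other genes was not tested. The whole G2/M list was higher by that test, 32 of 32, while 31 of its members fell in siSOX17 against the controls (median -0.81). All 34 G1/S genes were higher by it too, after a median change of -1.20 in siSOX17.

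For 396 genes the calls were opposite, 273 of them higher with the PAX8 pool and lower without it and 123 the reverse. All 396 were called in the difference, which opposite calls nearly ensure, so this adds no separate evidence. GJB2, the connexin 26 gene, stood at 146 to 169 CPM in the controls, at 48.9 and 56.6 in siSOX17, at 15.5 and 14.8 in siPAX8 and at 29.7 and 26.7 in siDual. Its log2 change was -1.59 ± 0.08 (adjusted p = 1.35e-11) without the PAX8 pool and 0.89 ± 0.10 (adjusted p = 2.3e-06) with it. ADAMTS14, a procollagen protease, did the reverse: 1.67 to 2.5 CPM in the controls, 7.19 and 5.76 in siSOX17, 10.9 and 13.5 in siPAX8 and 5.14 and 4.68 in siDual. Without siPAX8 replicate 2, 226 genes were called opposite ways, and without siDual replicate 1 or 2, 234 and 240.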

How the data were processed

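Total RNA of OVCAR4 cells was measured by RNA-seq. Per the submitters' processing notes, STAR 2.5.1b, featureCounts 1.6.3 and hg38 were named. The values used are the authors' deposited raw counts per gene, not normalized. Strand and pooling are not given in the sources used here. Gene types and positions came from GENCODE 29, matched by identifier for 57836 of 58219 genes. Genes were kept by filterByExpr (minimum count 10, total 15), scaled by TMM and tested with edgeR 4.0.16 (R 4.3.3) in a quasi-likelihood model of 14 libraries and 7 groups, with Benjamini-Hochberg adjustment over 21032 genes and a threshold of 0.05. The biological coefficient of variation was 7.6%. Precision rests on 40832825 to 49803860 counts a library. Replicates differed by more than sampling noise (chi-square per degree of freedom 10.69 to 20.74), so none was counted as a duplicate.

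Named genes were the targets; the 15 largest called changes each way that code for protein, average 1 or more in log2 CPM and have groups that do not overlap; 3 long noncoding RNAs each way; up to 2 called members each way of each of 59 gene lists; and the extremes of the difference and of the opposite calls. A gene that this rule names is not reported here. The comparison, the lists and the members were chosen with earlier results of these data known. Tested on simulated data for siDual minus siPAX8, with 200 of 20751 genes changed drawn from well-counted genes, the test recovered 94% at 2-fold and 100% at 4-fold. Alternatives tried were DESeq2 1.42.0, edgeR with size factors from DESeq2, other filters, the compared groups alone, a replicate block, mitochondrial genes left out, single control pools and each library left out.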

Additional observations from a re-analysis of the deposited data

Results flagged for a closer look

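The test of whether the SOX17 pool acted differently with and without the PAX8 pool called 2530 genes higher and 2740 lower, and genes named by rule from it follow with their log2 differences (with minus without the PAX8 pool). Among protein-coding genes of mean log2 CPM of 1 or more, the highest were LRRC61 at 2.69, CA2 (carbonic anhydrase 2) at 2.53, GJB2 at 2.49, DNAAF3, a dynein assembly factor, at 2.42 and the BMP antagonist GREM1 at 2.41. LRRC61 was not called in siDual minus siPAX8 (0.28 ± 0.22, adjusted p = 0.429, edgeR), and its level fell from 22 to 24.8 CPM in the controls to 3.53 and 5.2 in siSOX17. CA2 fell in both settings, from 6.37 and 9.07 CPM to 2.47 and 2.36 with the PAX8 pool and from 62.6 to 78.4 CPM in the controls to 3.38 and 3.9 without it. DNAAF3 rose by 0.49 ± 0.13 with the PAX8 pool, a call lost without siPAX8 replicate 2, without siDual replicate 2 and with only the compared groups in the model.

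Among the lowest differences were IL11 at -3.6, ANGPTL4 at -3.4, MYOZ1, a calcineurin-binding sarcomere protein, at -3.32 and the nucleoside transporter SLC28A3 at -3.22. IL11, ANGPTL4 and MYOZ1 rose in both settings, and more without the PAX8 pool: IL11 by 5.66 on the log2 scale without it and 2.05 with it. MYOZ1 lost its call in siDual minus siPAX8 without siDual replicate 1. SLC28A3 stood at 5.25 and 8.16 CPM in siPAX8 and 6.89 and 7.31 in siDual, against 0.236 to 0.704 in the controls. Of the genes called opposite ways, ADAMTS14 differed by -2.94, NBEA by -2.69, the sulfatase ARSJ by -2.54 and DACT3 by -1.91. DACT3 lost its call in siDual minus siPAX8 without siPAX8 replicate 1. No group had enough libraries for a test of single outlying samples.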

How the results depend on the processing

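With 2 libraries a group, the number of calls depended most on leaving libraries out: genes called higher ranged from 1445 to 1568 and genes called lower from 1126 to 1332 over the siPAX8 and siDual libraries, against 2075 to 2316 and 1710 to 2045 over the control and siSOX17 libraries. Genes called opposite ways ranged from 226 to 394 over all of these libraries, and the lone library of a group was then assumed to vary like the others. Genes higher by at least 2-fold numbered 264 under the stricter filter, which tests fewer genes, against 399. DESeq2 called 2132 higher and 1616 lower, and the model of the 4 libraries alone 1908 and 1908. Replicate numbers did not establish pairs: deviations of same-numbered libraries correlated at -0.018 to 0.161 over 21 pairs of groups (0.108 for siDual and siPAX8), and the fit with the replicate block called 2718 higher and 2118 lower. Of genes called, 48.7% to 57.3% were higher over all settings. The siSOX17 change of ANKRD1 came to 0.000678 against siNT2 alone (adjusted p = 0.996) and that of MT1M to -0.649 against siNT1 alone (adjusted p = 0.00498), each opposite in sign to the value against both pools; the cause was not tested. Genes under a few counts a library, such as WT1, are limited by depth.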
